A study of Homo sapiens with 10 samples.

Results

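Interferon-stimulated genes are the genes that cells switch on when interferons, the secreted antiviral cytokines, reach them. A list of 40 such genes was followed across 10 Affymetrix arrays of cultured human cells, and 39 of them were measured among 18279 genes in all. A gene counted as measured where the array's annotation gave a probe set to that gene alone, and where a gene had several, the brightest by its mean over the arrays stood for it. STAT2, the remaining listed gene, was not analysed here.

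Type I and type III interferons bind receptors that carry the kinases JAK1 and TYK2, which activate transcription factors of the STAT family. STAT2 and IRF9 are part of the complex that binds the interferon-stimulated response element (ISRE) in the promoters of target genes. Interferon gamma acts mainly through another promoter element, the gamma-activated site (GAS), and some of the same genes are also switched on directly by interferon regulatory factors when RNA or DNA is sensed in the cell.

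The cells were A549, a human lung adenocarcinoma line, and AD32, a line labelled resistant to discodermolide, a microtubule-stabilising natural product. A549 cells in 0.01% DMSO (4 arrays) were labelled sensitive, and A549 cells in 32 nM discodermolide (2 arrays) were labelled senescent. AD32 cells were grown in 32 nM discodermolide (3 arrays), and AD32 4E-BP1 cells, labelled sensitive, were in 0.01% DMSO (1 array). The labels give neither the duration of treatment nor how 4E-BP1, a repressor of translation initiation, was introduced, and they do not say how the biological replicates were grown apart, so p-values measure the spread between these samples only. AD32 differed from A549 in DMSO in both line and drug, and the AD32 4E-BP1 array differed from AD32 in both 4E-BP1 and drug, so these cannot be told apart.

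All levels below are the deposited log2 values, on which a difference of 1 is a 2-fold change. Array medians lay between 6.50 and 6.63, and lower quartiles between 4.77 and 4.94. EIF4EBP1, the gene of 4E-BP1, was at 11.61 on the AD32 4E-BP1 array, between 7.99 and 8.93 on the AD32 arrays and between 9.47 and 10.23 on the A549 arrays. The epithelial keratins KRT8 and KRT18 were at 12.67 or above on every array. The epithelial cadherin CDH1 was between 8.46 and 10.40, while EPCAM was between 3.30 and 3.87 and the lung markers NKX2-1, SFTPC and SFTPB between 4.58 and 6.53. Of 9 leukocyte markers CD68, a lysosomal protein of macrophages, was between 8.34 and 10.71, PTPRC was between 2.77 and 3.20 and the other 7 were between 2.95 and 6.23. A549 DMSO replicate 1 and AD32 replicate 3 stood apart from their groups in cell-cycle genes. The mean of 10 cycling-cell markers was 6.93 on A549 DMSO replicate 1 and 10.17 to 10.22 on the other A549 DMSO arrays, and it was 9.80 on AD32 replicate 3 against 5.15 and 6.35 on the other AD32 arrays. It was 6.76 and 6.99 on the discodermolide arrays of A549 and 10.09 on the AD32 4E-BP1 array. A549 DMSO replicates 3 and 4 were nearly identical, with an SD of differences over all genes of 0.16 against 0.28 to 0.70 for the other pairs within a group. In bulk RNA, fewer cells expressing a gene and less RNA per cell cannot be told apart.

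Promoter sequence is shown for IFI44, IFIT1, IFI44L and IFI6, which were among the 5 genes furthest apart between the discodermolide-treated A549 arrays. It is also shown for HERC5 and SAMD9, which among the members had the lowest adjusted p in AD32 against A549 in DMSO. Each stretch is the 170 bases before a transcription start site of RefSeq (GRCh38.p14), written 5′ to 3′ on the gene's strand, with matches to the ISRE core in capitals. The core searched was a pair of GAAA repeats with any 2 bases between them, on either strand, so that a match on the opposite strand reads as a pair of TTTC repeats. The stretches lie at chr1:78649619-78649788 (plus strand), chr10:89392453-89392622 (plus strand), chr1:78620278-78620447 (plus strand), chr1:27672193-27672362 (minus strand), chr4:88456949-88457118 (plus strand) and chr7:93117980-93118149 (minus strand).
IFI44: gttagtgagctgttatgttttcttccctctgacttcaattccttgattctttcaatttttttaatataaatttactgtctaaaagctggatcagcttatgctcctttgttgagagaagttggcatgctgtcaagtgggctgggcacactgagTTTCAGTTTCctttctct
IFIT1: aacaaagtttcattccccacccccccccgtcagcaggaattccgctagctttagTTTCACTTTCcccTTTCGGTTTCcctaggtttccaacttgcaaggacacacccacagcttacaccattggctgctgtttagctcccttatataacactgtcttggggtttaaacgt
IFI44L: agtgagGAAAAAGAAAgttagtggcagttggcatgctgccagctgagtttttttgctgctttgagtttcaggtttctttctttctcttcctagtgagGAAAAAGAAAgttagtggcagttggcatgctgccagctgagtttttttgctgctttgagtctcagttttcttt
IFI6: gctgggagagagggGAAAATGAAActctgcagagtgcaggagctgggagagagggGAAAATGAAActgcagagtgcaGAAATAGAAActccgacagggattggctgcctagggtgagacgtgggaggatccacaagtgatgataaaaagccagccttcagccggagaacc
HERC5: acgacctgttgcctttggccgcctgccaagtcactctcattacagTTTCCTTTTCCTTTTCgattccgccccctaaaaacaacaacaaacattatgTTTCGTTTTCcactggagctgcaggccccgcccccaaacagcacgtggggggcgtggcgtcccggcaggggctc
SAMD9: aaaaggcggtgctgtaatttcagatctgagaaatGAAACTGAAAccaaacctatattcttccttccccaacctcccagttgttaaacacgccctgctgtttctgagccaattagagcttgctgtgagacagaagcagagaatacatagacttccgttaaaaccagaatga

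In the 300-base window from 250 bases before to 50 after a start site, 22 of the 32 members with a promoter entry held at least 1 match (68.8%), against 4.38% of all 27305 genes with an entry. A gene was counted where any of its entries held a match, in the members and in all genes alike. All 10 members that differed most between the treated arrays held one. The shorter GAS-like pattern TTCNNNGAA was in 11 of 32 (34.4%), against 9.38% of all genes with an entry. In the HERC5 stretch 2 of the 3 matches overlap, and those of IFI44L recur within a repeated block. OAS1, IFI35 and UBE2L6 held no ISRE core in this window, which says only that these letters are not there. Several members are next to each other in the genome, among them IFI44L and IFI44, IFIT2 and IFIT3, IFIT1 and IFIT5, HERC6 and HERC5, and OAS1, OAS3 and OAS2.

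Discodermolide-treated A549 cells were compared with A549 cells in DMSO for genes that the drug-treated, senescent state raised or lowered. TRIM22, a ubiquitin ligase family member that restricts viruses, rose 8.41-fold, and SAMD9, a cytoplasmic antiviral and growth-restraining protein, rose 4.27-fold. The count passing the test was 2 of 39 members (5.13%), against 0.372% of all genes. Both were higher and 0 were lower, where 0.35% of all genes were higher and 0.0219% lower. At an unadjusted p under 0.05 the count was 16 members (41.0%) against 11.1% of all genes. The difference was above 0 for 36 of 39 members, with a median of 0.65 (0.13 without treated replicate 2) against 0.02 over all genes. Both treated arrays lay above all DMSO arrays for 13 members (33.3%, against 15.2% of all genes) and below them for 0 members (7.71% of all genes). Cycling markers were also lower on the treated arrays than on DMSO replicates 2 to 4, as given above, and their part in these differences was not tested.

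TRIM22 was at 5.09, 4.61, 4.81 and 5.07 on the DMSO arrays and at 8.06 and 7.87 on the treated arrays. The groups did not overlap and the treated arrays were close to each other. Its log2 difference was 3.07 (SE 0.31, adjusted p = 0.00796, limma). SAMD9 was at 4.40, 4.49, 4.64 and 4.41 in DMSO and at 6.03 and 7.14 after treatment, with a difference of 2.10 (SE 0.27, adjusted p = 0.0184). Every treated value again lay above every DMSO value. Without treated replicate 1 the adjusted p of TRIM22 was 0.09, and without treated replicate 2 it was 0.0956. For SAMD9 the adjusted p was 0.0648, 0.0739, 0.0761 and 0.0939 without DMSO replicates 2, 3 or 4 or treated replicate 2 respectively, and 0.0752 with DMSO replicates 3 and 4 averaged. The number of members called was 0 without treated replicate 2, 5 without treated replicate 1 (12.8%, against 0.0656% of all genes), 6 without DMSO replicate 1 (15.4%, against 3.52%), and 1 without DMSO replicate 2, 3 or 4. Without DMSO replicate 2, 3 or 4 the 1 call was 2.56% of the members, against 0.0656% to 0.0875% of all genes. With 1 treated replicate left out, fewer of all genes passed than with all arrays. The number of members called was 14 with both arrays that stood apart in cycling markers left out of the fit (35.9%, against 14.5% of all genes). These were DMSO replicate 1 and AD32 replicate 3.

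The sensors and transcription factors had differences from 0.06 to 1.45 between treated A549 cells and DMSO, and 0 of 4 passed (2 at an unadjusted p under 0.05). IRF9, the DNA-binding subunit of the interferon-activated STAT complex, had a mean of 9.08 ± 0.71 (SD, n = 2) after treatment and 7.62 ± 0.51 (SD, n = 4) in DMSO. IRF1, an interferon-induced activator, was at 7.64 ± 0.16 and 6.85 ± 0.39. In both genes the treated arrays lay above the DMSO arrays.

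Members of the IFIT family, which bind viral RNA and restrain its translation, had the highest median difference of the roles with at least 4 genes, 1.75, with 0 of 4 passing and 3 at an unadjusted p under 0.05. IFIT1 was at 7.04, 5.95, 6.13 and 6.15 in DMSO and at 7.27 and 10.46 after treatment. Its treated arrays lay above the DMSO arrays, narrowly on replicate 1 and widely on replicate 2. The fold was 5.86 with adjusted p = 0.22. IFIT3 was at 5.85, 5.41, 5.17 and 5.20 in DMSO and at 5.80 and 7.83 after treatment, so the groups overlapped. IFIT5 showed a difference of 0.15 with adjusted p = 0.924.

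The 2-5A synthetases, which make the messenger that activates RNase L, had differences from -0.09 to 0.58 and 0 of 4 passed (1 at an unadjusted p under 0.05). The dynamin-like GTPases MX1 and MX2 were low everywhere, with means from 4.25 to 4.99 over the 4 groups and differences of 0.14 and 0.20. ISG15, the ubiquitin-like modifier, was at 6.69, 6.36, 6.59 and 6.35 in DMSO and at 6.76 and 7.17 after treatment. USP18, which removes ISG15 from its targets, was at 7.42 ± 0.14 (SD, n = 4) and 7.32 ± 0.68 (SD, n = 2). MX2, RSAD2 (viperin) and EPSTI1 lay under the lower quartile of all genes on every array.

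IFI44L had the largest difference after TRIM22. This gene, an interferon-induced gene next to its homologue IFI44, was at 6.49, 5.29, 6.48 and 6.42 in DMSO and at 7.44 and 10.52 after treatment (7.03-fold, adjusted p = 0.165). IFI6, a small membrane protein that guards cells against death and viral replication, was at 9.14, 8.04, 7.93 and 8.04 and at 9.53 and 12.11 (5.80-fold, adjusted p = 0.199). In both genes treated replicate 1 lay above the highest DMSO array and treated replicate 2 lay further above it. PARP9, a partner of the ubiquitin ligase DTX3L, was at 6.94, 6.89, 6.59 and 6.68 and at 7.97 and 9.60 (4.03-fold, adjusted p = 0.0682). IFI44 was at 5.0, 4.03, 3.96 and 4.19 and at 4.94 and 8.70 (5.77-fold, adjusted p = 0.288). For IFI44 treated replicate 1 was inside the DMSO range. Without treated replicate 1 the calls were IFI44, IFI44L, IFIT1, PARP9 and SAMD9, and without DMSO replicate 1 they were IFIT2, IRF1, IRF9, PARP9, SAMD9 and TRIM22.

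**Figure D1:**
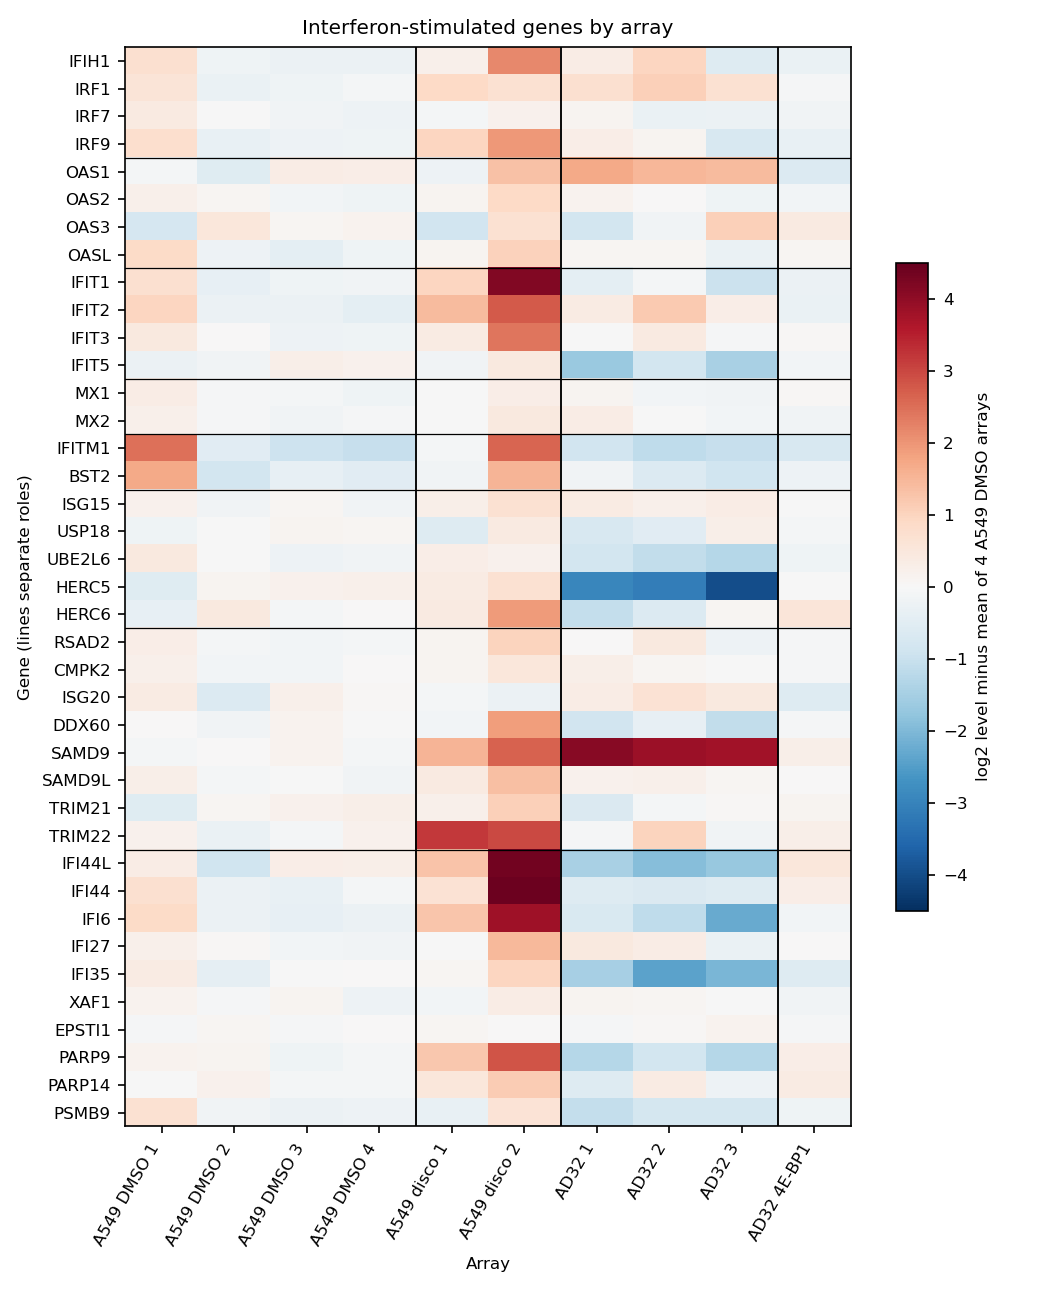
Heat map of the 39 members (rows) on the 10 arrays (columns), each as log2 level minus the mean of the 4 A549 DMSO arrays. Treated replicate 2 is the highest of the 10 arrays for 27 members, a count whose share of all genes was not computed. The AD32 arrays have low values for HERC5 and IFI35 and high values for SAMD9.

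The discodermolide-treated A549 arrays differed from each other in these genes more than in genes at large. Replicate 2 lay above replicate 1 for 34 of 39 members (87.2%), against 50.7% of all genes. The difference was over 1 for 16 members (41.0%), against 0.377% of all genes, and under -1 for 0 members, against 0.137% of all genes. The median was 0.94 for the members and 0.00 over all genes. With 1 array against 1 array of the same group there is no test, and these values describe those arrays.

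IFI44 differed most, at 4.94 on replicate 1 and 8.70 on replicate 2 (a difference of 3.76). IFIT1 followed with 3.20, IFI44L with 3.09, IFITM1 with 2.69 and IFI6 with 2.58, and these were also the 5 largest differences of all 18279 genes. IFITM1, a membrane protein that blocks viral entry, was at 8.35, 5.36, 4.96 and 4.84 in DMSO and at 5.81 and 8.50 after treatment. On this gene DMSO replicate 1 and treated replicate 2 were alike and high, and the remaining arrays, the AD32 arrays at 5.0, 4.72 and 4.85 included, were low. BST2 (tetherin), which holds budding virus at the cell surface, was at 6.99, 4.47, 4.91 and 4.76 in DMSO and at 5.13 and 6.81 after treatment.

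IFIT3, whose values are given above, followed with 2.04. The RNA helicases DDX60 and IFIH1 (MDA5, a sensor of long double-stranded RNA) came after it, with 1.99 and 1.94. DDX60 was at 5.73, 5.58, 5.87 and 5.72 in DMSO and at 5.60 and 7.59 after treatment. IFIH1 was at 5.07, 4.17, 4.09 and 4.09 and at 4.58 and 6.52. Both were high on treated replicate 2 and within the DMSO range on replicate 1. The 2-5A synthetases OAS3 and OAS1 differed by 1.56 and 1.55, HERC6 by 1.49, IFI27 by 1.49 and IFIT2 by 1.33. TRIM22, IRF1, UBE2L6, ISG20 and EPSTI1 were not higher on replicate 2, with differences between -0.23 and -0.06.

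Of all genes, the 10 with the largest excess on replicate 2 were IFI44, IFIT1, IFI44L, IFITM1, IFI6, TCN1 (2.41), PPARGC1A (2.23), IFIT3 (2.04), DDX60 (1.99) and IFIH1 (1.94). Members of the list were 8 of these 10, 12 of the 20 highest and 15 of the 40 highest. Lowest on replicate 2 were INA (-2.25), ARRDC4 (-1.84), SNORA14A, SNORD35A, SNORD41, SNORD60, FAM230B, SNORD104, SNORD28 and SNORD32A. No member was among them. The cycling-cell markers, also measured here, differed by a median of 0.21 between these arrays, and the mean level of 9 interferon ligands was 4.49 on replicate 1 and 4.38 on replicate 2.

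Set beside the DMSO arrays, treated replicate 1 lay above all 4 of them for 13 members and treated replicate 2 for 32. Against DMSO replicates 2 to 4 only, the counts were 26 and 37. The median member was 0.13 above the DMSO mean on replicate 1 and 1.07 above it on replicate 2. Treated replicate 2 was the highest of the 10 arrays for 27 members. The shares of all genes were not computed for the counts in this paragraph, so they describe the members only.

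**Figure D2:**
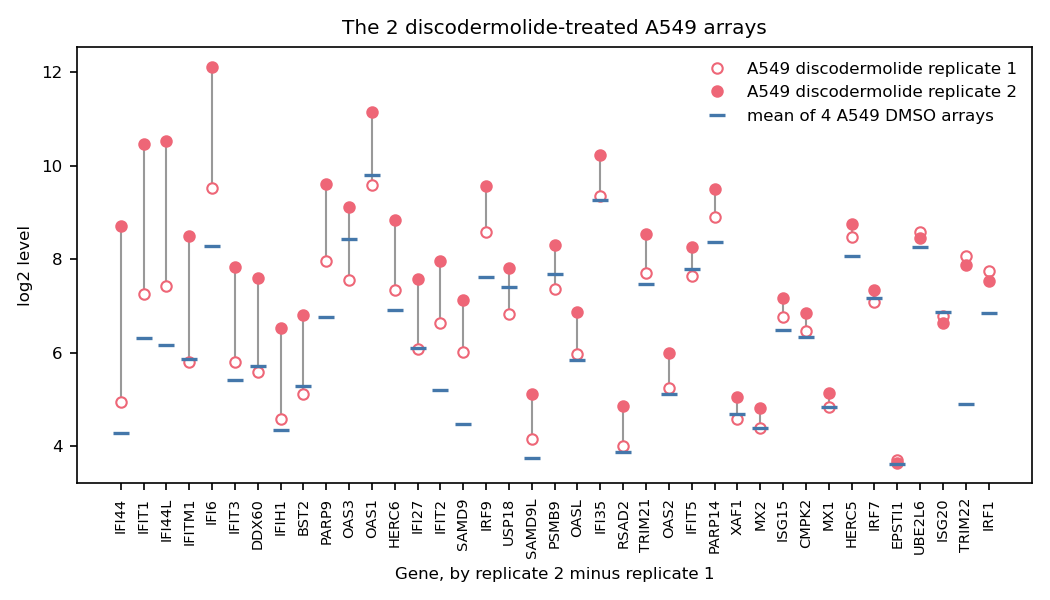
Log2 level (y) of the 39 members (x, ordered by replicate 2 minus replicate 1) on discodermolide-treated A549 replicate 1 (open circles) and replicate 2 (filled circles), joined by a line, with the mean of the 4 A549 DMSO arrays as a dash. The lines are longest for IFI44, IFIT1 and IFI44L (3.76, 3.20 and 3.09), and TRIM22 has circles at 8.06 and 7.87 above a dash at 4.90.

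Members were also higher on DMSO replicate 1, the A549 DMSO array low in cycling markers, than on the other DMSO arrays. It lay above the other 3 for 28 of 39 members (71.8%), against 41.5% of all genes, and above their mean by over 1 for 6, namely IRF9, OASL, IFIT2, IFITM1, BST2 and IFI6, where 2.82% of all genes did so. The median was 0.36 for members and 0.04 over all genes. The part of the cycling markers in this difference was not tested. The mean of all 39 members was 6.65, 6.17, 6.22 and 6.22 on the DMSO arrays, 6.68 and 7.81 on the treated arrays, 6.10, 6.21 and 5.95 on the AD32 arrays and 6.26 on the AD32 4E-BP1 array.

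**Figure D3:**
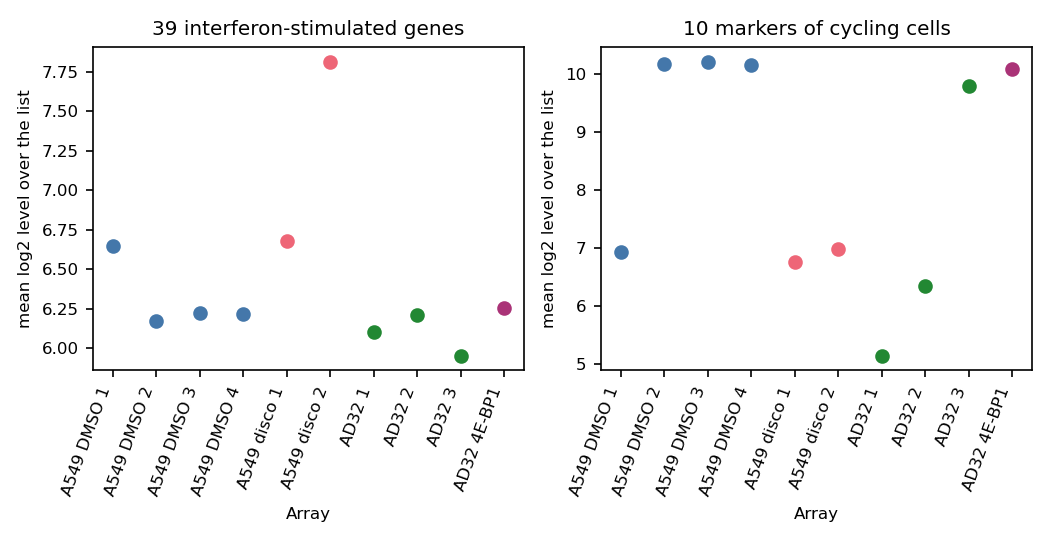
Mean log2 level (y) of the 39 members (left) and of the 10 cycling-cell markers (right) on each array (x), with groups in colour and each panel on its own axis. Members stand at 7.81 on treated replicate 2 and between 5.95 and 6.68 elsewhere, while the cycling markers are at 6.93 on A549 DMSO replicate 1 and at 10.17 or above on the other DMSO arrays.

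AD32 cells, grown in discodermolide, were compared with A549 cells in DMSO and with A549 cells in discodermolide. Against DMSO, HERC5, the ligase that attaches ISG15 to new proteins, fell 10.2-fold in AD32. SAMD9 rose 15.1-fold, and OAS1 rose 2.92-fold. IFI35, IFIT5 and UBE2L6, the ISG15 conjugating enzyme, also fell. In all 6 of 39 members were called (15.4%, against 5.72% of all genes). Of these 6, 2 were higher (5.13%, against 3.52% of all genes) and 4 were lower (10.3%, against 2.19%). The median member differed by -0.05. At an unadjusted p under 0.05 by limma the count was 10 members (25.6%), against 19.7% of all genes. The members' share of adjusted calls was below that of all genes with array weights (7 members, 17.9%, against 23.1%) and without DMSO replicate 1 and AD32 replicate 3 (8 members, 20.5%, against 28.3%). The members' arrays did not overlap with those of DMSO for 4 members that were higher (10.3%, close to the 8.9% of all genes) and 10 that were lower (25.6%, against 6.48% of all genes).

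SAMD9 was at 8.59, 8.35 and 8.26 on the AD32 arrays, above the treated A549 arrays and far above A549 in DMSO (difference 3.91, SE 0.24, adjusted p = 3.27e-05, limma). HERC5 was at 7.54, 8.20, 8.27 and 8.30 in DMSO, at 8.46 and 8.75 in treated A549 cells and at 5.14, 4.96 and 4.07 in AD32. No AD32 array came near an A549 array (difference -3.35, SE 0.28, adjusted p = 0.000232). Its neighbour HERC6 was at 6.92 ± 0.34 (SD, n = 4) in DMSO and 6.39 ± 0.59 (SD, n = 3) in AD32, with no call.

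IFI35 was at 9.64, 8.87, 9.26 and 9.29 in DMSO and at 7.79, 6.86 and 7.20 in AD32 (3.95-fold lower, adjusted p = 0.00533). UBE2L6 was at 8.70, 8.25, 8.04 and 8.09 in DMSO and at 7.45, 7.17 and 7.00 in AD32 (2.09-fold lower, adjusted p = 0.0117). Neither gene's groups overlapped. IFIT5 was at 7.53, 7.64, 8.05 and 7.99 in DMSO and at 6.13, 6.97 and 6.35 in AD32 (2.49-fold lower, adjusted p = 0.0153). OAS1 was at 9.72, 9.26, 10.14 and 10.11 in DMSO and at 11.51, 11.32 and 11.24 in AD32 (adjusted p = 0.0345), with OAS2 and OAS3 differing by under 0.05 from DMSO. OAS1 stood above every DMSO array in each AD32 array.

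The calls of SAMD9, HERC5 and IFI35 passed with each array left out in turn. OAS1 missed the threshold without DMSO replicate 2 (adjusted p = 0.0817), 3 (0.0665) or 4 (0.0705) and without AD32 replicate 1 (0.124) or 2 (0.111), and also with DMSO replicates 3 and 4 averaged (0.0686). IFIT5 missed it without DMSO replicate 3 (0.0545) or 4 (0.0557), without AD32 replicate 1 (0.0637) and with the 2 DMSO arrays averaged (0.0552), and UBE2L6 without AD32 replicate 2 (0.0526). The number called ranged from 4 to 8 with 1 array left out, where 2.8% to 11.8% of all genes were called.

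Against treated A549 cells, 9 of 39 members were called in AD32 (23.1%, against 3.74% of all genes). Of these, 8 were lower (20.5%, against 2.46%) and 1, SAMD9, was higher (2.56%, against 1.28%). The arrays did not overlap for 21 members that were lower (53.8%, against 18.0%) and 3 that were higher (7.69%, against 14.4%). IFI44L was 22.6-fold lower (adjusted p = 0.0126), IFI6 14.9-fold (0.0215), HERC5 14.7-fold (0.000488) and PARP9 8.86-fold (0.00351). TRIM22 was 7.00-fold lower (0.00203), IFI35 5.68-fold (0.00525), IFIT5 2.76-fold (0.0283) and UBE2L6 2.48-fold (0.0138), all by limma. On the AD32 arrays IFI44L was at 4.72, 4.25 and 4.47, IFI6 at 7.59, 7.16 and 6.01, PARP9 at 5.49, 5.94 and 5.49 and TRIM22 at 4.85, 5.89 and 4.74. Each of these was below both treated A549 arrays, and IFI44L, IFI6 and PARP9 were below all DMSO arrays as well. TRIM22 in AD32 differed by 0.27 from its DMSO mean. This comparison and the one against DMSO share the AD32 arrays.  The median difference of all members was -0.96 against treated A549 cells, with 33 of 39 below 0.

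Without treated replicate 2, which leaves 1 treated array, HERC5, IFI44L, PARP9, SAMD9 and TRIM22 still passed. IFI6, IFI35, IFIT5 and UBE2L6 did not. Fewer of all genes passed as well, and the reason for the fall was not tested. IFIT5 also missed the threshold by limma without DMSO replicate 4 (adjusted p = 0.0521) or AD32 replicate 1 (0.0867), and IFI6 without AD32 replicate 2 (0.0567). Without treated replicate 1, IFIT5 and UBE2L6 missed it. Without treated replicate 2 the median difference of the members was -0.28, against -1.30 without treated replicate 1. The log2 difference without treated replicate 2 was -2.96 for IFI44L, -2.61 for IFI6 and -2.33 for PARP9. Without treated replicate 1 these 3 genes were at -6.04, -5.19 and -3.96. Leaving out DMSO replicate 1 and AD32 replicate 3 together gave 17 calls (43.6%, against 15.1% of all genes).

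With all arrays, IFI44 (8.76-fold lower, adjusted p = 0.0897) and IFIT1 (8.24-fold lower, adjusted p = 0.0681) did not pass. Both passed without treated replicate 1 (adjusted p = 0.0014 and 0.00539) and without DMSO replicate 1 and AD32 replicate 3 together (0.0373 and 0.0316), and IFIT1 also without DMSO replicate 1 alone (0.0467). On the AD32 arrays IFI44 was at 3.73, 3.66 and 3.70, and IFIT1 was at 5.89, 6.24 and 5.34. IFIT3 was at 5.39, 5.82 and 5.35, DDX60 at 4.87, 5.37 and 4.61, IFIH1 at 4.68, 5.33 and 3.76 and BST2 at 5.13, 4.68 and 4.39. IFI44, IFIT1 and DDX60 were below both treated A549 arrays on every AD32 array. The groups overlapped for IFIT3 and IFIH1, and for BST2 the highest AD32 array was level with treated replicate 1. On the treated A549 arrays IFI35 was at 9.35 and 10.23, UBE2L6 at 8.58 and 8.45, OAS1 at 9.59 and 11.14 and IFIT5 at 7.64 and 8.26. IFI35, UBE2L6 and IFIT5 were above every AD32 array there, and OAS1 was below them.

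**Figure D4:**
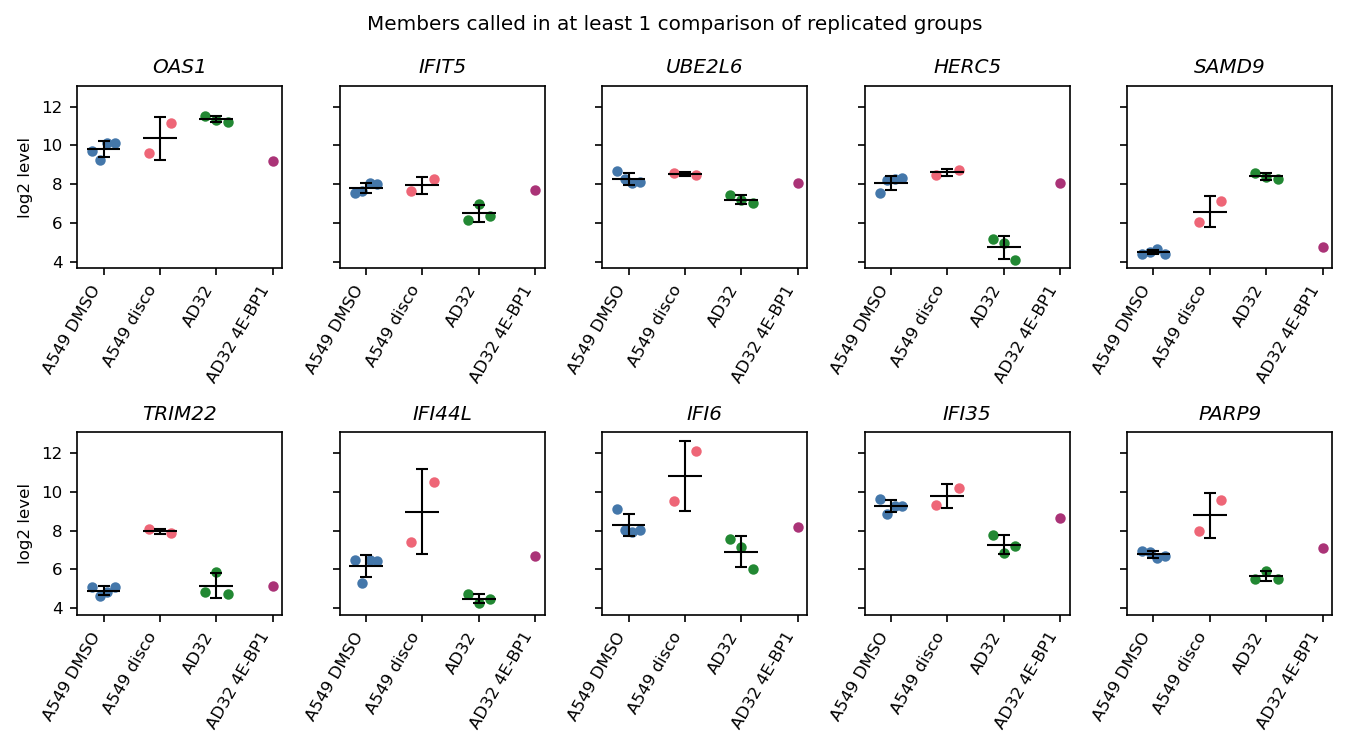
Log2 levels by group of the 10 members called in at least 1 comparison of replicated groups, with each array as a point and the mean ± SD as a bar where a group has several. SAMD9 rises from DMSO to treated A549 to AD32, HERC5 is between 4.07 and 5.14 only in AD32, and the AD32 4E-BP1 array lies with A549 in DMSO for both genes.

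The AD32 4E-BP1 array, in DMSO, was compared with AD32 in discodermolide, a contrast in which 4E-BP1 and drug change together. HERC5, at 8.07, was 10.1-fold higher than in AD32 (adjusted p = 0.00756, limma) and SAMD9, at 4.75, was 12.6-fold lower (adjusted p = 0.00176). These 2 were the members called (5.13%, against 0.919% of all genes), 1 in each direction. Without DMSO replicate 1 and AD32 replicate 3, 6 members were called (15.4%, against 16.4% of all genes), and with array weights 7 (17.9%, against 7.01%). The lone array lay above all AD32 arrays for 15 members (38.5%, against 23.9% of all genes) and below them for 11 (28.2%, against 27.7%). The lone array was assumed to vary like the other groups, and with the replicate number as a block HERC5 had an adjusted p of 0.0555.

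Of the 6 members called between AD32 and A549 in DMSO, all 6 were nearer the A549 DMSO mean than the AD32 mean on the AD32 4E-BP1 array, and 3 were inside the range of the DMSO arrays. These 6 were picked by the difference of AD32 from DMSO on these same arrays, so their position is a description and not a test. The share was not computed for all genes called in that comparison. On the AD32 4E-BP1 array OAS1 was at 9.20, IFI35 at 8.67, UBE2L6 at 8.09 and IFIT5 at 7.68. Of these only the position is described, since their differences from AD32 had adjusted p from 0.15 to 0.298. The AD32 4E-BP1 array had IFI44L at 6.69, IFI44 at 4.59, IFI6 at 8.18 and PARP9 at 7.08. TRIM22 was at 5.15, IFIT1 at 6.04, IFIT3 at 5.46 and DDX60 at 5.67, IFIH1 at 4.06, IFITM1 at 5.16 and BST2 at 5.07. Of the genes named from IFI44L to BST2, all except DDX60 were below both treated A549 arrays. Against A549 in DMSO 0 of 39 members were called and 0 of all 18279 genes (0.0%). At an unadjusted p under 0.05 the counts were 0 members and 208 genes by limma. The array was within the DMSO range for 27 of 39 members (69.2%), close to the 69.0% of all genes.

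Other genes of the pathway were followed in lists. Of the 9 interferon ligands, 0 passed by limma in any comparison, with 0 or 1 at an unadjusted p under 0.05 in each. IFNB1 was between 2.98 and 3.36 on all arrays and IFNL1 between 5.60 and 6.06. The 6 receptor genes gave 0 calls and from 0 to 3 at an unadjusted p under 0.05, with IFNAR1 between 8.69 and 9.32, IFNAR2 between 7.50 and 8.44 and IFNGR1 between 8.29 and 10.40. The kinases JAK1 (10.15 to 11.05) and TYK2 (8.33 to 8.93) gave none either. STAT3, a cytokine-activated factor, rose in treated A549 cells, 2.12-fold (adjusted p = 0.0265).

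Among 14 sensors and adaptors, 1 rose in treated A549 cells (7.14%, against 0.35% of all genes). In AD32, 2 were lower than in treated A549 cells (14.3%, against 2.46%). TLR3, which detects double-stranded RNA in endosomes, rose 3.77-fold in treated A549 cells (adjusted p = 0.0282) and was 4.70-fold lower in AD32 than in them. It was at 6.26, 5.97, 5.97 and 5.98 in DMSO and at 7.70 and 8.23 after treatment. Both treated arrays lay above the DMSO arrays, and replicate 2 was the higher of them. RIGI, the sensor of short 5′-triphosphate RNA, was at 7.46 and 8.94 after treatment and between 6.14 and 6.65 in AD32 (3.47-fold lower, adjusted p = 0.0426).

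Of 9 genes of MHC class I presentation, 1 rose in treated A549 cells (11.1%, against 0.35% of all genes). In AD32 against DMSO, 1 was higher (11.1%, against 3.52%) and 2 were lower (22.2%, against 2.19%). TAP1, a peptide transporter of the MHC class I pathway, rose 2.85-fold in treated A549 cells (adjusted p = 0.0259) and 2.15-fold in AD32 against DMSO (adjusted p = 0.0106). TAP2 and the peptidase ERAP1 were 1.99-fold and 2.36-fold lower in AD32 than in DMSO. ERAP1 was 3.17-fold higher on the AD32 4E-BP1 array than in AD32 (adjusted p = 0.048). The 4 guanylate-binding proteins and 4 interferon-induced chemokines measured gave 0 calls, with up to 2 and 0 at an unadjusted p under 0.05 in a comparison.

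Of 26 other interferon-induced genes, 0 were called in treated A549 cells (9 at an unadjusted p under 0.05). In AD32, 3 were lower against DMSO (11.5%, against 2.19% of all genes) and 7 against treated A549 cells (26.9%, against 2.46%). The neighbour of IFITM1, IFITM2, was between 9.16 and 9.91 in A549 cells and at 6.99, 6.78 and 6.73 in AD32 (5.76-fold lower than DMSO, adjusted p = 0.000179). It was at 9.46 on the AD32 4E-BP1 array, 6.18-fold above AD32 (adjusted p = 0.00484). The PARP9 partner DTX3L fell 2.33-fold and PARP12 2.37-fold in AD32 against DMSO. Against treated A549 cells these were 4.91-fold and 3.80-fold lower, and LGALS3BP, a secreted galectin-binding glycoprotein, was 10.8-fold lower (adjusted p = 0.014). IRF2, a repressor of interferon targets, was 2.51-fold lower in that comparison (adjusted p = 0.0145), 1 of 5 negative regulators.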

How the data were processed

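The 10 Affymetrix arrays were run from total RNA, with biotin as the label. Per the submitters' processing notes, the authors used Affymetrix Expression Console. The range of the deposited values fits a log2 scale, and no value was missing. The version, summarisation, normalization and build behind them were not given in the sources used here. The number of arrays limits the precision.

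Of 24308 probe sets, 19262 had 1 gene in the platform annotation, 1720 several and 3326 none; 740 of 18279 genes had several probe sets. Two-sided limma tests (limma 3.58.1, R 4.3.3) ran on all genes and 10 arrays with 6 residual degrees of freedom, 1 spread for the 4 groups and Benjamini-Hochberg adjustment, at a threshold of 0.05. No filter on low values was used. Scripts used Python 3.11.15. Tests were checked on simulated data.

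Members, lists and tests were chosen with earlier results of these data known. Values on every array are given for members called in a comparison of replicated groups and for the 10 members furthest apart between the treated arrays. Up to 4 genes per pathway list with the smallest p among those called were named, as were IFNB1, IFNL1, IFNAR1, IFNAR2, IFNGR1, JAK1, TYK2 and RIGI, and the 10 genes in each direction furthest apart between the treated arrays. Promoter stretches and gene neighbours came from RefSeq tables of GRCh38.p14. Alternatives were median centring, quantile normalization, a trended robust prior, removal of the genes lowest by mean, array weights, averaging over the probe sets of a gene, a replicate block, averaging of A549 DMSO replicates 3 and 4, each replicate left out and, chosen after seeing the data, removal of A549 DMSO replicate 1 with AD32 replicate 3.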

Additional observations from a re-analysis of the deposited data

Results flagged for a closer look

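In 6 of 18 sets of A549 DMSO values examined, 1 of the 4 arrays stood far from the other 3 by the gap between it and its nearest neighbour. Chance alone sets apart about 1 in 20 single groups. That rate does not apply to this count, since all sets share the same 4 arrays and the members were chosen with earlier results known. HERC5 was at 7.54 on A549 DMSO replicate 1, with the others between 8.20 and 8.30. IFI6 was at 9.14 on that array against 7.93 to 8.04, IFIH1 at 5.07 against 4.09 to 4.17, and IFITM1 at 8.35 against 4.84 to 5.36. The mean of the 39 members was 6.65 on it, with the others between 6.17 and 6.22. IFI44L was set apart on another array, at 5.29 on A549 DMSO replicate 2 against 6.42 to 6.49.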

How the results depend on the processing

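Against A549 in DMSO, discodermolide-treated A549 cells had 2 members called. The count was 2 after median centring, quantile normalization or averaging of a gene's probe sets, and 3 with a trended robust prior. It was 1 without the genes lowest by mean, where 24 members were tested, 1 with DMSO replicates 3 and 4 averaged, 21 with array weights (53.8%, with 4573 of all 18279 genes called), 14 without A549 DMSO replicate 1 and AD32 replicate 3 (chosen after seeing the data; 35.9% against 14.5%) and 0 with the replicate block, and from 0 to 6 with 1 array left out; the cause was not tested. AD32 against DMSO gave 6, from 4 to 8 with 1 array left out, 7 with array weights (17.9%, against 23.1% of all genes) and 8 without the 2 arrays above (20.5% against 28.3%), so that the members' share fell below that of all genes in both. AD32 against treated A549 cells gave 9, from 5 to 12 with 1 array left out, 11 with array weights (28.2% against 10.2%) and 17 without the 2 arrays above (43.6% against 15.1%). AD32 4E-BP1 against AD32 gave 2, 7 with array weights (17.9% against 7.01%), 1 with the replicate block, 6 without the 2 arrays above (15.4% against 16.4%) and 2 to 3 with 1 array left out. Against A549 in DMSO it gave 0 under every alternative. The shares of all genes called also moved with 1 A549 DMSO or AD32 array left out. They were 0.0656% to 3.52% for treated A549 cells against DMSO and 2.8% to 11.8% for AD32 against DMSO. For AD32 against treated A549 cells they were 2.25% to 6.65%. The count of 16 members over 1 between the treated arrays was the same under median centring, quantile normalization and the mean of probe sets. No called member changed direction under any alternative run. The labels do not say whether same-numbered replicates were grown together. Same-numbered arrays' deviations from their group means correlated between -0.26 and 0.68, which does not settle it. With the block, the adjusted p was 0.185 for SAMD9 and 0.13 for TRIM22 in treated A549 cells, 0.0838 for OAS1 in AD32 against DMSO and 0.068 for IFI6 in AD32 against treated A549 cells.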

Other observations

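Probe sets that the annotation gives to several genes were kept out of the tests and are described here. The probe set of GBP1, GBP3 and a GBP1 pseudogene, guanylate-binding proteins that attack intracellular pathogens, had a mean of 6.31 in A549 DMSO and 8.52 after discodermolide, and 7.60 in AD32. The 3 probe sets of HLA-B and HLA-C, the classical MHC class I heavy chains, were between 1.14 and 1.34 above the DMSO mean on the treated arrays. In them A549 DMSO replicate 1 was between 10.63 and 11.18 and the other DMSO arrays between 9.01 and 9.75. The probe set shared by USP18 and a related pseudogene was at 7.41 on treated replicate 1 and 9.23 on replicate 2. GBP2, a guanylate-binding protein singled out after its values were seen, was at 7.36 on A549 DMSO replicate 1 and between 4.00 and 4.24 on the other DMSO arrays, at 6.98 and 7.30 after discodermolide and at 7.30, 6.99 and 5.31 in AD32.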
